A study of Homo sapiens with 6 samples.

Results

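Endoglin and the receptors of the TGF-beta superfamily were followed in RNA sequencing counts of HepG2 cells, as labelled, a human line established from a liver cancer. The 10 genes were taken by name out of 27452 rows of the count table: the co-receptors ENG and TGFBR3, the type II receptors TGFBR2, BMPR2 and ACVR2B, and the type I receptors TGFBR1, ACVR1B, ACVRL1, ACVR1 and BMPR1A. They were picked on the rise of ENG in this same comparison, so their changes between the groups are given as a description, without p-values, and support nothing beyond themselves. Where a receptor gene is said to pass a threshold or not, this only sorts the genes and is not offered as a test. The study compared cells carrying a control shRNA, a short hairpin RNA, with cells carrying an shRNA against STAT3, a transcription factor that cytokines activate, with 3 libraries per group and 6 in all. The medium was the same for all libraries: DMEM, antibiotics and fetal bovine serum. The labels do not say whether libraries 1 to 3 are separate cultures, separate clones or different shRNA sequences. The p-values therefore rest on the spread among these libraries alone, possibly a technical one, and any other difference between the constructed lines cannot be told apart from the effect of the shRNA.

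Most ligands of this superfamily are secreted dimers that bring together type II and type I receptors, which are serine/threonine kinases. The type II receptor phosphorylates the type I receptor, which in turn phosphorylates SMAD transcription factors: SMAD2 and SMAD3 below the TGF-beta and activin receptors, SMAD1, SMAD5 and SMAD9 below the BMP receptors. Endoglin and betaglycan (TGFBR3) have no kinase of their own and present ligand to the kinase receptors. Endoglin is best known from endothelial cells, where it acts with ACVRL1 (also called ALK1) and where mutations in either gene cause hereditary haemorrhagic telangiectasia. In the liver, BMP signalling through BMPR1A and ACVR1 is known for the control of hepcidin.

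Promoter sequence is shown for the 3 receptor genes whose counts passed the threshold used here, ENG, TGFBR3 and BMPR2, as the 250 bases before the RefSeq start (build GRCh38.p14), 5′ to 3′ on the strand of the gene. The capitals mark CG dinucleotides, the sites of DNA methylation in mammals. ENG lies on the minus strand (chr9:127854659-127854908), TGFBR3 on the minus strand (chr1:91886152-91886401) and BMPR2 on the plus strand (chr2:202376077-202376326).
ENG: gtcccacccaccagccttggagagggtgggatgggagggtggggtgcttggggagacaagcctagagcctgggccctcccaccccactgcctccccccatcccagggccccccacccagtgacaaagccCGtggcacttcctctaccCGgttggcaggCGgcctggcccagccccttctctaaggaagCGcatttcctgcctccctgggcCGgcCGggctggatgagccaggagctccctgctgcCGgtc
TGFBR3: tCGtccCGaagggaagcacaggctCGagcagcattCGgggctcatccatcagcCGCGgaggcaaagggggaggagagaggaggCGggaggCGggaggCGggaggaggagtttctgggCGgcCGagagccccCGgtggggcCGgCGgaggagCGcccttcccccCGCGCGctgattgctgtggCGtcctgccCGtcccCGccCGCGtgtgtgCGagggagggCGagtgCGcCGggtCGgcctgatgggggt
BMPR2: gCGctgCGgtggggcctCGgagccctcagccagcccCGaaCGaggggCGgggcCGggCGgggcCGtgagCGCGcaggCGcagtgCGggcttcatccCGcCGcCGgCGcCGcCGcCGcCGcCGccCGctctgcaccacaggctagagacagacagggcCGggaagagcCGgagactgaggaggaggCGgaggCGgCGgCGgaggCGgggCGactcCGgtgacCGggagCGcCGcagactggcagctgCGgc

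The ENG window held 7 CG dinucleotides, against 28 for TGFBR3 and 36 for BMPR2 and a median of 11 over all 35116 RefSeq windows of this length. Its GC content was 69.6%, above the median of 58%. The search covered 4 motifs on both strands and counted overlapping matches. GGGCGG, the core bound by SP1-type factors, was absent from the ENG window, while TGFBR3 held 2 matches and BMPR2 held 3, and 42.6% of all windows held at least 1. TTCNNNGAA, the letters of a STAT site, was found in 6.57% of all windows and in 0 of the 20 windows of the 9 receptor genes that had one (ACVRL1 had none). GGCGCC, a motif of SMAD1-bound sites, was in 16.4% of all windows, and CAGAC, a motif of SMAD3-bound sites, in 38%. The ENG and TGFBR3 windows held neither, and BMPR2 held 1 match of the former and 2 of the latter. A match is a description of letters, and an absence covers only these windows.

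The libraries held 17408543 to 25862027 counts. A gene with no count could lie at up to 0.113 to 0.175 CPM (the gene's counts per 1000000 counts of the library after TMM scaling), if 3 counts are taken as the limit, and this covers counting error only. STAT3 itself lay at 246 to 261 CPM under control shRNA and at 34.8 to 36.2 CPM under STAT3 shRNA, so each library carried the level its label names. Defining hepatocyte markers were at or near 0, against what the label of a liver line implies. The identity of the line was not tested. Of 22 hepatocyte and HepG2 markers, 13 were in the counts used here and 6 of these had no more than 3 counts in each library, among them ALB with at most 3 counts in any library, APOA1 with at most 2 and APOA2 with at most 2. KRT8 and KRT18, keratins of simple epithelia, made up most of the summed level of the list, which was 2720 to 3260 CPM under control shRNA and 4490 to 4920 CPM under STAT3 shRNA. Of the 6 tested members of the list 4 rose and 0 fell, against 9.39% and 8.13% of all genes tested. Log2 fold changes of STAT3 shRNA over control (± SE where given) had a median of 0.57. The 4 were KRT8 (0.67), KRT18 (0.48), HNF4A and EPCAM. TF, or transferrin (1.59 and 0.805 CPM, -0.97 ± 0.518), and the retinol carrier RBP4 (-0.19 ± 0.359) did not pass, and 1 of the list was lower without control library 1. HNF4A, a hepatocyte transcription factor, rose from 1.51 ± 0.259 to 6.57 ± 1.41 CPM and the epithelial adhesion gene EPCAM from 3.05 ± 0.387 to 10.5 ± 0.769 CPM (SD, n = 3 per group; edgeR adjusted p = 0.000407 and 0.000121). AFP, APOB, TTR and SERPINA1 were not analysed here.

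In what follows a positive log2 fold change (± SE) means a higher level with the STAT3 shRNA, and mean levels carry the SD of the 3 libraries of a group. Of the 10 receptor genes, 9 had enough counts to be tested. Of these, 2 were higher with the STAT3 shRNA (ENG and TGFBR3), 1 was lower (BMPR2) and 6 did not pass a false discovery rate (FDR) of 0.05. Over all 14999 genes tested, 17.5% passed, 9.39% higher and 8.13% lower. The 2 co-receptors were thus the receptor genes that were higher, and nothing is read from the count because the genes were chosen with this comparison known. For 5 of the 9 tested receptor genes the control and STAT3 shRNA libraries did not overlap in CPM, 3 above and 2 below control, which held for 35.7% of all genes tested.

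**Figure D1:**
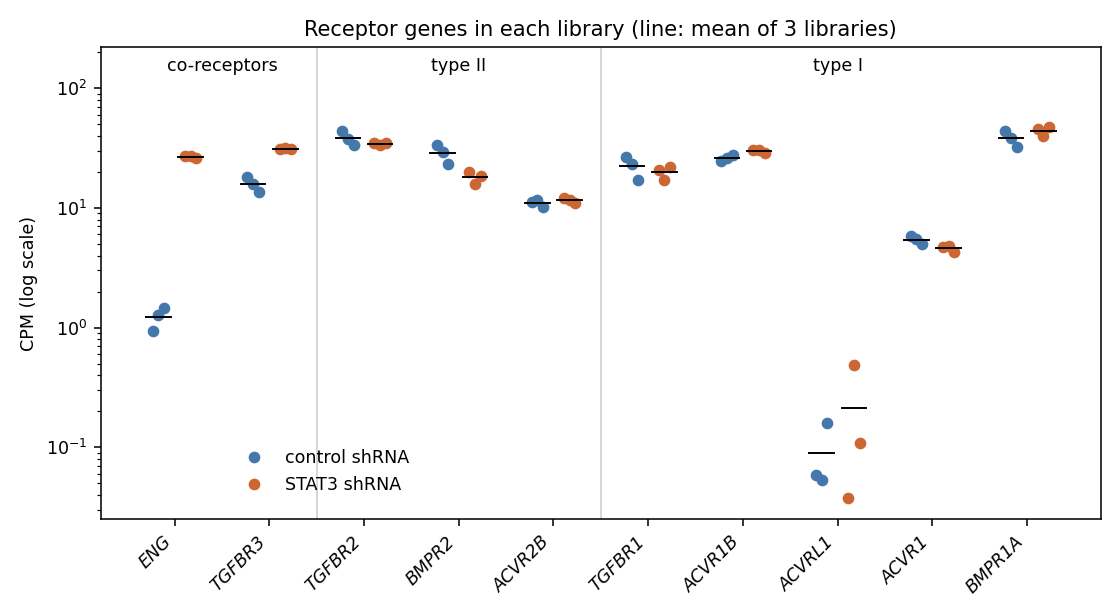
Levels of the 10 receptor genes in each library, in CPM on a log axis, with blue points for the 3 control shRNA libraries, orange points for the 3 STAT3 shRNA libraries and a line at each mean. ENG moves from 1.23 to 26.9 CPM, TGFBR3 from 15.9 to 31.3 CPM, while most kinase receptors stay close to their control level.

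ENG (ENSG00000106991.13), the gene for endoglin, had 16, 24 and 28 counts under control shRNA and 728, 554 and 481 under STAT3 shRNA. This corresponds to 0.932, 1.28 and 1.47 CPM under control shRNA, and to 27.3, 27.2 and 26.2 CPM under STAT3 shRNA. The 3 STAT3 shRNA libraries lay close together and each stood far above the highest control library. The mean rose from 1.23 ± 0.275 to 26.9 ± 0.613 CPM, 21.9-fold, with a log2 fold change of 4.44 ± 0.166. Among tested genes ENG ranked 13164 of 14999 by its mean CPM under control shRNA and 6879 under STAT3 shRNA, without regard to transcript length. A larger rise was found for 39 of the 1408 genes called higher. In bulk RNA, more cells with ENG transcripts and more transcripts per cell cannot be told apart. An annotated antisense gene, AL162586.1, overlaps ENG on the opposite strand, and without a known strand setting reads of the 2 cannot be told apart. Its own level was 1.09 ± 0.088 CPM and 1.26 ± 0.16 CPM, and it did not pass the test (0.21 ± 0.295; edgeR adjusted p = 0.663).

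TGFBR3 (ENSG00000069702.11) encodes betaglycan, which presents TGF-beta2 and inhibin to the kinase receptors. It lay at 18.3, 15.8 and 13.6 CPM under control shRNA and at 31, 31.9 and 31.1 CPM under STAT3 shRNA. The groups did not overlap, and the spread was wider among the control libraries. The mean rose from 15.9 ± 2.36 to 31.3 ± 0.521 CPM, 1.97-fold, or 0.98 ± 0.124 on the log2 scale. ENG made up 14.3 ± 4.47% of the summed CPM per kilobase of the 2 co-receptors under control shRNA. Under STAT3 shRNA it made up 64.5 ± 0.558%. CPM per kilobase is CPM divided by the length of the longest annotated transcript, and levels of the receptor genes are compared with one another on this scale. The rank of ENG among all tested genes and the summed levels of marker lists use CPM without regard to length.

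Among the type II receptors, BMPR2 (ENSG00000204217.13), the main type II receptor for BMPs, was lower. It lay at 33.8, 29.6 and 23.1 CPM under control shRNA and at 19.8, 15.7 and 18.5 CPM under STAT3 shRNA. The lowest control library stood just above the highest STAT3 shRNA library. The mean fell from 28.9 ± 5.38 to 18 ± 2.11 CPM, 1.6-fold lower (-0.68 ± 0.156). It no longer passed the threshold when control library 2 (-0.66 ± 0.188), STAT3 shRNA library 2 (-0.59 ± 0.171) or STAT3 shRNA library 3 (-0.70 ± 0.191) was left out.

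TGFBR2 (ENSG00000163513.17), the type II receptor for TGF-beta, lay at 44.2, 37.5 and 33.9 CPM under control shRNA and at 34.9, 33.3 and 35 CPM under STAT3 shRNA. These ranges overlapped, and its log2 fold change of -0.16 ± 0.115 did not pass. ACVR2B (ENSG00000114739.14), a type II receptor for activins, lay at 11.3, 11.6 and 10.2 CPM and at 12.1, 11.6 and 11.1 CPM, with overlapping groups and a log2 fold change of 0.07 ± 0.121. An antisense gene, ACVR2B-AS1, lies next to it and overlaps it, with 1.11 ± 0.405 CPM in the control and 1.31 ± 0.557 CPM under STAT3 shRNA.

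None of the 4 tested type I receptors passed the threshold in edgeR, nor an unadjusted p of 0.05, and 0 passed in DESeq2. ACVR1B (ENSG00000135503.13), the activin receptor also called ALK4, lay at 24.8, 26.1 and 27.6 CPM under control shRNA and at 30.6, 30.7 and 28.8 CPM under STAT3 shRNA. The STAT3 shRNA libraries all stood above the control libraries, by 0.20 ± 0.0971 on the log2 scale. ACVR1 (ENSG00000115170.13), the BMP receptor also called ALK2, lay at 5.77, 5.55 and 4.95 CPM and at 4.73, 4.76 and 4.25 CPM (-0.24 ± 0.162). Its STAT3 shRNA libraries all stood below the control libraries, with a gap smaller than the range within either group.

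TGFBR1 (ENSG00000106799.13), the type I receptor for TGF-beta, lay at 26.6, 23.1 and 17.2 CPM in the control and at 20.9, 17.1 and 21.9 CPM under STAT3 shRNA (-0.16 ± 0.169). BMPR1A (ENSG00000107779.13), a BMP receptor also called ALK3, lay at 44, 38.3 and 32.3 CPM and at 45.5, 40.1 and 47.1 CPM (0.21 ± 0.129). Both overlapped between the groups. In TGFBR1, BMPR1A, ACVR1, BMPR2, TGFBR2 and TGFBR3, control library 1 was the highest and control library 3 the lowest of the control group. ENG and ACVR1B ran the other way, from lowest in control library 1 to highest in control library 3. Beyond the receptor genes, control libraries 1 and 3 differed most of all pairs within a group, with a chi-square per degree of freedom of 43. ACVRL1 (ENSG00000139567.12), the type I partner of endoglin in endothelium, had 1, 1 and 3 counts under control shRNA and 1, 10 and 2 under STAT3 shRNA. It was left out by the filter on low counts. With no filter its log2 fold change was 1.15 ± 1.12, and 1.21 ± 1.48 in DESeq2, so a difference was not detectable at this depth.

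The order of the receptor genes by CPM per kilobase differed between the groups mainly through the co-receptors. In the control libraries TGFBR2 was the highest at 8.34 ± 1.13, followed by ACVR1B at 5.73 ± 0.31. TGFBR1 (3.42 ± 0.73) and BMPR1A (3.39 ± 0.523) overlapped, as did BMPR1A with BMPR2 (2.52 ± 0.47) and BMPR2 with TGFBR3 (2.46 ± 0.364). ACVR1 (1.78 ± 0.139) and ACVR2B (0.932 ± 0.0633) were lower, and ENG stood at 0.402 ± 0.0898, above only ACVRL1 (0.0218 ± 0.0143).

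In the STAT3 shRNA libraries ENG was the highest at 8.79 ± 0.2 CPM per kilobase, above TGFBR2 at 7.44 ± 0.214 and ACVR1B at 6.58 ± 0.243, with no overlap between these neighbours. TGFBR3 had moved to the fourth place at 4.85 ± 0.0806. BMPR1A (3.93 ± 0.324) and TGFBR1 (3.07 ± 0.39) followed, then BMPR2 (1.57 ± 0.184) and ACVR1 (1.5 ± 0.094), which overlapped. ENG made up 1.42 ± 0.45% of the summed CPM per kilobase of the 10 genes under control shRNA and 22.7 ± 0.659% under STAT3 shRNA. The summed level was 14.3 ± 1.06 and 15.1 ± 0.47 for the 5 type I receptors and 11.8 ± 1.63 and 9.99 ± 0.399 for the 3 type II receptors, in control and STAT3 shRNA libraries. BMPR1A, BMPR2 and ACVR2B have longest transcripts of 11255, 11461 and 11821 bases, against 3059 for ENG. Use of shorter transcripts would place them higher, and which transcripts these cells made was not tested.

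**Figure D2:**
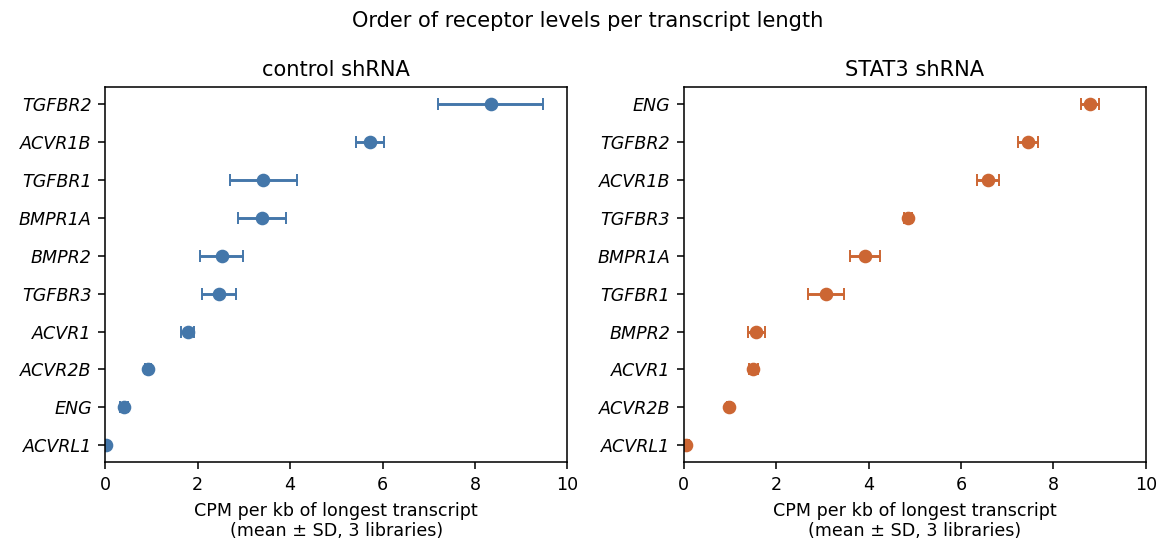
Receptor genes ordered by level in the control shRNA libraries (left) and the STAT3 shRNA libraries (right), as CPM per kilobase of the longest annotated transcript, with points for the mean and bars for the SD of 3 libraries. ENG stands at 0.402 on the left and at 8.79, the highest, on the right.

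The genes next to each receptor on its chromosome were then set beside it, 10 tested genes on each side in the order of the GENCODE annotation. For comparison, 9.39% of all genes tested were higher and 8.13% lower. Around ENG, on chromosome 9, 1 of 20 neighbours was higher and 2 were lower, with a median of -0.10, and the nearest protein-coding ones, CDK9 (-0.11 ± 0.112), FPGS (-0.09 ± 0.12) and AK1 (-0.07 ± 0.137), did not pass (edgeR adjusted p = 0.551, 0.632 and 0.760). The 4 genes nearest to ENG, AL162586.1 among them, thus did not pass while ENG rose. Around TGFBR3, on chromosome 1, 5 of 20 were higher and 0 lower, with a median of 0.21. LRRC8C (2.64 ± 0.301) and GBP3 (2.02 ± 0.243), picked out after their values were seen, rose more than TGFBR3. The nearest neighbours of TGFBR3, ZNF644, CDC7, GLMN and RPAP2, had log2 fold changes of 0.10, 0.24, 0.21 and -0.02 and did not pass. CDC7 did pass when control library 1 was left out.

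The BMP receptor genes of chromosome 2 lay among lower genes. Around BMPR2, 9 of 20 neighbours were lower, against 8.13% of all genes tested. Their median was -0.46, and 18 of 20 had a log2 fold change below 0. NOP58, a nucleolar protein of ribosome assembly (-0.30 ± 0.0859; edgeR adjusted p = 0.0416), fell on one side, a call lost in 8 of 14 alternatives, among them the fits without control library 2 or any 1 of the STAT3 shRNA libraries. FAM117B (-0.49 ± 0.165) and ICA1L (0.84 ± 0.428) on the other did not pass, though FAM117B did with no filter on low counts and when control library 3 was left out. BMPR2 lay 0.22 below the median of its neighbours. Around ACVR1, 10 of 20 were lower and 17 of 20 below 0, with a median of -0.49, and ACVR1 lay 0.25 above that median. The part of the neighbourhood in the level of BMPR2 was not tested.

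**Figure D3:**
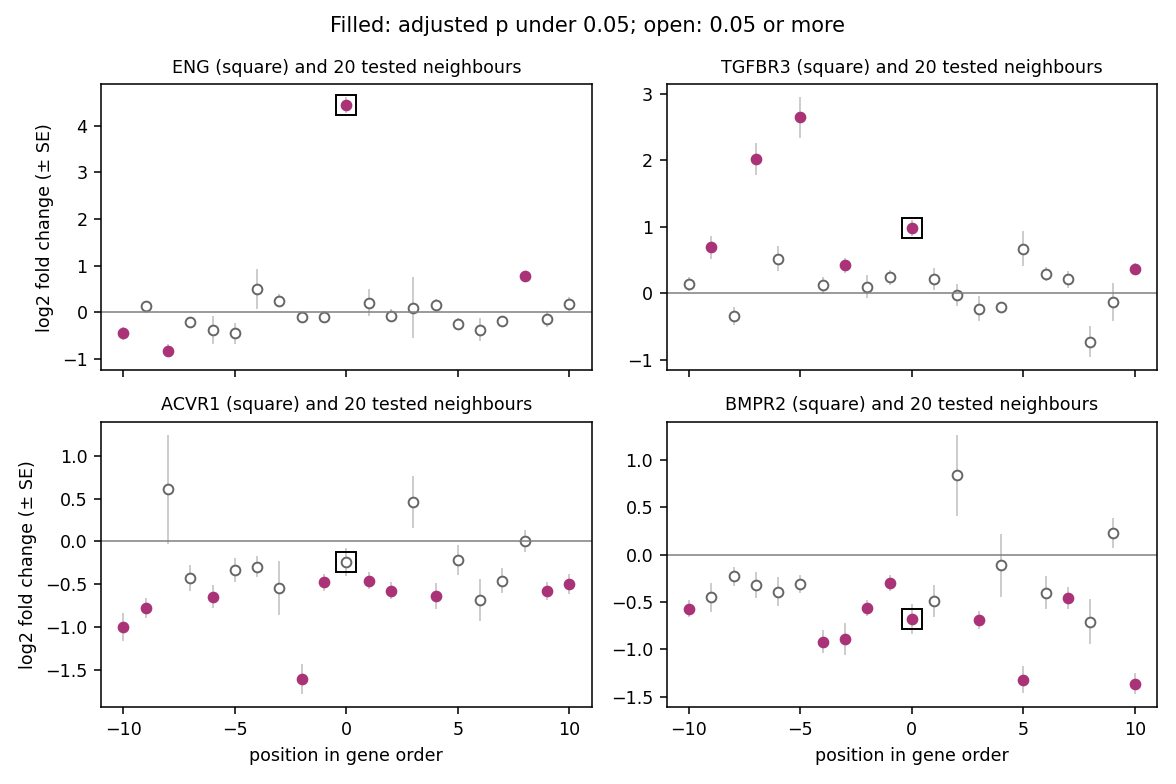
Log2 fold changes (STAT3 shRNA over control, ± SE) of ENG, TGFBR3, ACVR1 and BMPR2, each marked by a square, and of the 10 tested genes on either side in gene order, with filled points for an adjusted p under 0.05. The vertical scales differ between panels. ENG stands at 4.44 over neighbours with a median of -0.10, while BMPR2 at -0.68 lies among neighbours with a median of -0.46.

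Beside the counts of this and the following lists stand the shares of all genes tested, 9.39% higher and 8.13% lower. Of 13 other receptors and co-receptors of the superfamily, 7 were tested, 3 of which rose (median 0.48). With the filter on low counts none fell in edgeR, also at an unadjusted p of 0.05, and 1 (BMPR1B) was lower in edgeR with no filter and in DESeq2. In edgeR 1 was also lower when control library 1, STAT3 shRNA library 1 or STAT3 shRNA library 2 was left out. NEO1, or neogenin, which binds repulsive guidance molecules, rose from 3.13 ± 0.828 to 6.35 ± 0.493 CPM (1.02 ± 0.214; edgeR adjusted p = 0.0105). CD109, a membrane protein that binds TGF-beta, rose from 128 ± 19.8 to 183 ± 8.58 CPM (0.52 ± 0.116; edgeR adjusted p = 0.0149), and the BMP co-receptor RGMA from 0.659 ± 0.0885 to 1.44 ± 0.297 CPM (1.12 ± 0.334; edgeR adjusted p = 0.049). The call of RGMA was lost in 11 of 14 alternatives: with RLE scaling, no filter, DESeq2, non-robust dispersion and the replicate block, and when any 1 library was left out. When control library 2 or STAT3 shRNA library 3 was left out, 0 of these receptors were higher, and 1 was when STAT3 shRNA library 1 was left out, against 2 in DESeq2 with all libraries and 4 at an unadjusted p of 0.05. The activin receptor ACVR2A, at 4.67 ± 1.86 and 3.74 ± 0.801 CPM, and the pseudoreceptor BAMBI, at 20 ± 1.57 and 22.3 ± 2.52 CPM, did not pass. BMPR1B, a type I BMP receptor picked out after its values were seen, had 8, 11 and 11 counts under control shRNA and 3, 1 and 1 under STAT3 shRNA and was left out by the filter on low counts. With no filter its log2 fold change was -2.77 ± 0.833 (edgeR adjusted p = 0.0221).

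The ligands moved both ways, with 5 of 13 tested higher and 3 lower (median 0.49, against -0.01 over all genes tested). Which receptors each of them binds was not tested. BMP2 fell from 105 ± 6.11 to 36.5 ± 1.48 CPM (-1.53 ± 0.0902; edgeR adjusted p = 1.19e-05), and BMP6, the BMP of the iron-sensing liver, from 35.8 ± 2.98 to 15.4 ± 1.67 CPM (-1.22 ± 0.12; edgeR adjusted p = 0.000194). The inhibin chain INHA fell (-1.63 ± 0.253). BMP4 rose from 4.79 ± 0.156 to 11 ± 0.549 CPM (1.20 ± 0.133; edgeR adjusted p = 0.000364), the stress-induced GDF15 from 14.4 ± 2.43 to 45.8 ± 5.8 CPM (1.67 ± 0.151) and TGFB2, a ligand that betaglycan presents, from 5.01 ± 1.28 to 9.32 ± 1.29 CPM (0.90 ± 0.209). The call of TGFB2 was lost when control library 2, STAT3 shRNA library 1 or STAT3 shRNA library 3 was left out, and the count of higher ligands was then 2, 3 and 2. GDF2, or BMP9, the ligand that endoglin and ACVRL1 bind, and TGFB1 were not analysed here.

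Of 8 tested antagonists and binding proteins, 2 rose and 3 fell (median 0.22). NOG, or noggin, which sequesters BMPs, fell from 11.6 ± 2.1 to 2.5 ± 0.549 CPM (-2.21 ± 0.212; edgeR adjusted p = 0.000171). The activin-binding FSTL3 fell (-1.29 ± 0.158), as did LTBP1, which anchors latent TGF-beta in the matrix (-0.91 ± 0.105). TWSG1, a BMP-binding protein, rose from 25.2 ± 1.78 to 61.1 ± 5.06 CPM (1.28 ± 0.106). The other riser, LTBP2 (1.15 ± 0.324), lost its call in 9 of 14 alternatives, among them each fit that left out 1 library. The count of higher genes was 1 with the replicate block and when control library 2 or any 1 of the STAT3 shRNA libraries was left out.

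Among the SMAD genes, 1 of 7 rose and 1 fell (median 0.11). SMAD6, which inhibits BMP receptors and is itself induced by BMPs, fell from 66.5 ± 9.74 to 34.8 ± 2.5 CPM (-0.93 ± 0.124; edgeR adjusted p = 0.00092). SMAD3 rose from 79.3 ± 4.59 to 102 ± 1.97 CPM (0.36 ± 0.0836; edgeR adjusted p = 0.0174), a call that was lost when control library 2 or any 1 of the STAT3 shRNA libraries was left out. SMAD1 (0.15 ± 0.12), SMAD2 (-0.10 ± 0.108), SMAD4 (-0.11 ± 0.114), SMAD5 (0.11 ± 0.132) and SMAD7 (0.18 ± 0.176) did not pass. Of 18 regulators of SMADs, 2 fell (median -0.05). With the settings used here none rose in edgeR, 2 were higher at an unadjusted p of 0.05, and none rose in DESeq2. In edgeR 1 was higher with upper-quartile scaling, library totals, the filter at 1 CPM or non-robust dispersion. The lower count was 3 with DESeq2, 4 without control library 3 and 1 with library totals and without control library 2, STAT3 shRNA library 1 or STAT3 shRNA library 3, and 3 were higher without control library 1. The fallers were PMEPA1, which binds SMADs and dampens TGF-beta signalling (-0.56 ± 0.109), and STRAP, a receptor-associated protein (-0.37 ± 0.0933), whose call was lost in 4 of 14 alternatives.

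Proteins known to bind or cut endoglin were also listed. Of 8 tested, 3 rose in edgeR (median 0.09). MMP14, a membrane protease that sheds endoglin from the cell surface, rose from 28.3 ± 6.35 to 49 ± 4.29 CPM (0.79 ± 0.155; edgeR adjusted p = 0.00769). The phosphatase PTPN14 (0.55 ± 0.112) and ARRB2, a beta-arrestin (0.35 ± 0.0909), rose as well, the last a call lost with the replicate block and when control library 2 or any 1 of the STAT3 shRNA libraries was left out. GIPC1, which binds the tail of endoglin (0.06 ± 0.154), zyxin, or ZYX (-0.18 ± 0.0785), and the integrin chains ITGA5 (0.01 ± 0.0918) and ITGB1 (0.12 ± 0.101) did not pass.

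Known targets of BMP signalling were lower or did not pass: 5 of 10 tested fell, against 8.13% of all genes tested. Their median was -0.55, and 4 to 6 were lower over the alternatives. None rose in edgeR, also at an unadjusted p of 0.05, or in DESeq2. ID1, an inhibitor of differentiation factors and a direct target of SMAD1, lay at 118, 126 and 189 CPM in the control and at 60, 67.6 and 62.5 CPM under STAT3 shRNA. All STAT3 shRNA libraries stood below all control libraries, of which library 3 was the highest (-1.19 ± 0.168; edgeR adjusted p = 0.0013). ID3 fell from 154 ± 28.3 to 93.7 ± 9.77 CPM (-0.72 ± 0.138; edgeR adjusted p = 0.00675). SMAD6 and NOG, given above, belong to this list too, and ATOH8, an iron-related liver factor, fell (-0.61 ± 0.173), a call lost in 7 of 14 alternatives, among them each fit without 1 library other than control library 1. HAMP, the hepcidin gene, had 0 counts in every library, which allows up to 0.175 CPM in the shallowest.

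Known targets of TGF-beta went both ways, with 2 of 20 higher and 7 lower (median -0.33), against 9.39% and 8.13% of all genes tested. BHLHE40, a repressor of the circadian clock, fell from 153 ± 8.8 to 59.3 ± 4.24 CPM (-1.37 ± 0.0934; edgeR adjusted p = 2.63e-05), and the collagen chain COL1A1 from 40.2 ± 2.85 to 15.3 ± 1.1 CPM (-1.40 ± 0.108). TSC22D1 (-0.41 ± 0.0766), PMEPA1 and NEDD9, a focal adhesion scaffold (-0.55 ± 0.113), fell too. CCN2, or connective tissue growth factor, rose from 15.4 ± 0.603 to 33.6 ± 9.36 CPM (1.12 ± 0.183; edgeR adjusted p = 0.00284). LTBP2 was the other riser, and the higher count was 1 to 4 over the alternatives: 4 with library totals, and 1 with DESeq2, the replicate block and each fit that left out a library other than control library 3. SMAD7, a classical target picked out after its values were seen, did not pass. BMP targets and TGF-beta targets share SMAD7, and SMAD6, NOG and PMEPA1 also stand in other lists.

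**Figure D4:**
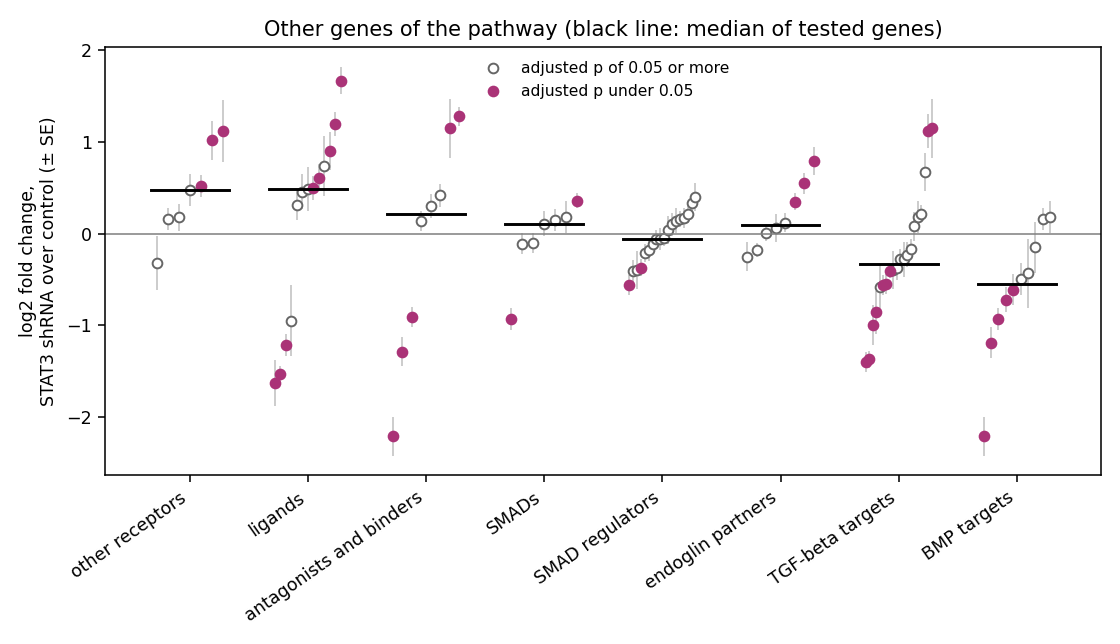
Log2 fold changes (STAT3 shRNA over control, ± SE) of the tested genes of 8 lists of the pathway, with filled points for an adjusted p under 0.05 and a black line at each list's median. The medians run from -0.55 for BMP targets to 0.49 for ligands.

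As endoglin marks endothelial and stromal cells, markers of these were read in the same libraries. Of 21 endothelial markers, 12 were in the counts used here, and 5 of these had no more than 3 counts in each library (EMCN, STAB2, TEK, TIE1 and NOS3). Of the 12, 3 were tested, of which 1 rose and 0 fell (median -0.15). Over the alternatives 1 to 2 were higher and 0 to 1 lower. CDH5, or VE-cadherin, lay at 1.11, 1.76 and 1.05 CPM in the control and 0.788, 0.589 and 0.871 CPM under STAT3 shRNA. It did not pass (-0.80 ± 0.357; edgeR adjusted p = 0.163). The summed level of the list was 28.3 to 46 CPM in the control and 31.1 to 41 CPM under STAT3 shRNA, most of it EGFL7, and these ranges overlapped. ESAM, a junction protein, rose from 3.16 ± 0.264 to 5.68 ± 0.398 CPM (0.84 ± 0.172; edgeR adjusted p = 0.00934). VWF and ERG were too low to test and were picked out after their values were seen. VWF had 1, 0 and 3 counts under control shRNA and 10, 19 and 15 under STAT3 shRNA. ERG went the other way, from 7, 5 and 3 counts under control shRNA to 0 in every STAT3 shRNA library. PECAM1 and KDR were not analysed here.

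Of 13 stromal markers, 7 were tested, 2 rose and 1 fell (median 0.33). NT5E, or CD73, rose from 1.32 ± 0.236 to 3.69 ± 0.128 CPM and the smooth muscle actin ACTA2 from 3.61 ± 0.772 to 7.55 ± 1.43 CPM (edgeR adjusted p = 0.00241 and 0.00868), while COL1A1 fell. The call of ACTA2 was lost without STAT3 shRNA library 1. The summed level of this list was 972 to 1020 CPM under control shRNA and 850 to 908 CPM under STAT3 shRNA, most of it vimentin (VIM, 927 ± 23.4 and 833 ± 33.3 CPM). Of 10 leukocyte and blood markers 1, CD68, was tested and rose (0.83 ± 0.173; edgeR adjusted p = 0.0105), a call lost without STAT3 shRNA library 3, and ITGAM and HBA1 had at most 2 and 0 counts. The part of other cells in the level of ENG was not tested.

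The 5 protein-coding genes with the pattern most like that of ENG were found by the root mean square difference between centred log2 CPM profiles over the 6 libraries, among the 10360 that averaged 5 CPM or more. MYO15B, an unconventional myosin gene, was nearest with a difference of 0.266, and lay at 0.816, 0.693 and 0.684 CPM in the control and 15.6, 18.7 and 15 CPM under STAT3 shRNA. PAGE1, a cancer-testis antigen with close copies (0.421), the laminin chain LAMA1 (0.486), the keratin KRT4 (0.486) and HSD17B13, an enzyme of lipid droplets (0.632), followed. They rose from 3.15 ± 0.483 to 112 ± 7.18, from 28.7 ± 1.96 to 318 ± 19, from 1.23 ± 0.382 to 51.5 ± 1.79 and from 0.615 ± 0.377 to 10 ± 1.17 CPM. As the libraries fall into 2 groups, this measure turns mainly on the size of the rise.

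**Figure D5:**
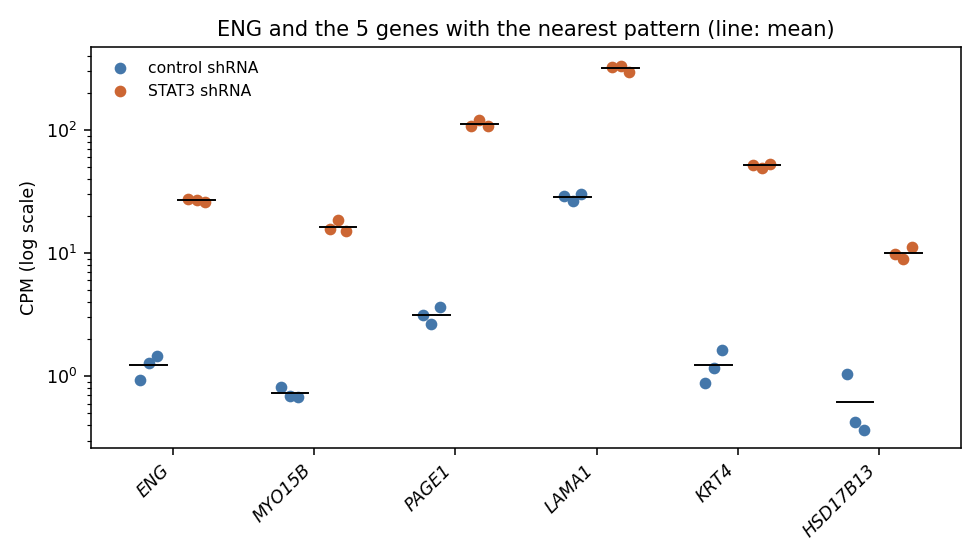
Levels of ENG and the 5 genes with the nearest pattern in each library, in CPM on a log axis, with blue points for control shRNA, orange points for STAT3 shRNA and a line at each mean. Each gene stands higher in all 3 STAT3 shRNA libraries, from 11.1-fold for LAMA1 to 42-fold for KRT4.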

How the data were processed

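The authors deposited whole-number read counts per gene for 6 libraries, 3 per group, with no normalization visible in the values. Not given in the sources used here: the aligner, counting program, genome build, annotation and strand setting. Groups were taken from the treatment labels. Gene lengths, types and order came from GENCODE 29, matched by identifier (25996 of 26420), and promoter windows from RefSeq, found for 9 of the 10 receptor genes. The table also held 1032 rows without a gene identifier, and 23 symbols turned into dates were restored.

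Counts were tested in R 4.3.3 with edgeR 4.0.16: filterByExpr (minimum count 10, minimum total 15), TMM scaling, the robust quasi-likelihood F test with group only, two-sided, and Benjamini-Hochberg adjustment over all 14999 tested genes at 0.05. TMM assumes that most genes do not differ. SE is the log2 fold change divided by the square root of F. The procedure was tested on simulated data, drawn independently for each gene, and the outcome is not given here. Differences between libraries that many genes share were not simulated, so they are not covered.

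The receptor genes, lists and rules were chosen with earlier results of these data known. Named were all 10 receptor genes and STAT3. Each list gave up to 6 called genes with the smallest adjusted p, or else up to 2 with the highest level. The 5 genes most like ENG (prior count 2) and the 2 nearest tested genes on each side of a called receptor gene were also named, except for an item that is not reported here. Genes of a list that did not pass are given as examples chosen after their values were seen. Alternatives were other scalings and filters, DESeq2 1.42.0, non-robust dispersion, the replicate number as a block, and each library left out.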

Additional observations from a re-analysis of the deposited data

How the results depend on the processing

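ENG and TGFBR3 kept their direction and their side of the threshold in all 14 alternatives, with log2 fold changes of 4.29 to 4.6 and 0.88 to 1.11. BMPR2 stayed lower in all 14, and its log2 fold change ran from -0.81 to -0.54 over the fits that left out 1 library. It passed the threshold in 11, so the count of lower receptor genes ran from 0 to 1, and the cause was not tested. The 6 other tested receptor genes passed in none of the 14. Leaving out 1 library gave 796 to 2068 higher and 666 to 2030 lower genes over all genes tested, and 6 to 17 higher and 15 to 22 lower genes over the 8 pathway lists, against 15 and 18 with all libraries. The pathway count of higher genes was 6 when control library 2 or STAT3 shRNA library 3 was left out, 8 for STAT3 shRNA library 1 and 10 for STAT3 shRNA library 2. Library totals moved the median log2 fold change of all genes from -0.01 to 0.09 and the share of higher calls from 53.6% to 68.6%. The same share was 62.3% with upper-quartile scaling. Of 64 tested genes named by rule, 49 kept their call in all 14 alternatives and none changed direction while past the threshold in edgeR or DESeq2. The replicate numbers were not taken as pairs because the labels do not say that they pair libraries. Same-numbered libraries had correlations of deviations of 0.279, 0.191 and -0.227, and not every library correlated best with its own number. With 3 libraries per group these correlations cannot decide whether the libraries were paired. With the replicate block 2278 genes were called, against 2627. The controls' own spread and the few counts of ENG there (16 to 28) limit the precision of its fold change.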

Other observations

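Some ligands too low to test had uneven counts. GDF1 had 60 counts in control library 3 and 0 in every other library. It shares its locus with CERS1, and how reads were split between them is not known. GDF7 had 2, 3 and 1 counts under control shRNA and 21, 7 and 8 under STAT3 shRNA. The endothelial transcription factor ERG had 7, 5 and 3 counts under control shRNA and 0 in every STAT3 shRNA library. THY1, or CD90, a stromal surface marker, had 2, 3 and 1 counts under control shRNA and 11, 13 and 9 under STAT3 shRNA. These genes were chosen after their values were seen.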
